A study of Arabidopsis thaliana with 4 samples.

Results

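The genes described here are 10 named genes of the plant cytoskeleton: the α-tubulins TUA1 and TUA6, the β-tubulins TUB1, TUB5, TUB6, TUB7 and TUB9, the actins ACT11 and ACT12, and the myosin XI-I. They are the probe sets annotated to exactly 1 gene whose symbol begins with 1 of 12 cytoskeletal prefixes followed by a digit or hyphen, 10 of 22746 probe sets in all. Members were found for 4 of the 12 prefixes, those of the tubulins, actins and class XI myosins. No kinesin, profilin, villin, formin, MAP65, actin-depolymerising factor or actin-related protein met the rule, so the set is called tubulin, actin and myosin genes here. A further 2 probe sets carry a matching symbol but are annotated to 2 genes each, and stay outside the set. The set thus need not hold every tubulin, actin or myosin gene of the plant.

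The study profiled 4 Arabidopsis thaliana samples, 1 for each combination of genotype and light, and each group is a single array. The wild type was Col-0, and sfr6 was an EMS mutant in the Col-0 background; the gene behind it, SFR6, encodes the Mediator subunit MED16, and Mediator passes signals from transcription factors to RNA polymerase II. Plants of both genotypes grew on agar for 7 days and were then kept in a high-light cabinet (240 microEinsteins, 16 h light and 8 h dark) for 24 h. The light groups stayed there for 3 h more, and the dark groups were wrapped in foil for those 3 h. All 4 groups thus had the same high-light pretreatment, and the number of plants behind each array is not given in the sources used here.

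Microtubules are hollow polymers of paired α- and β-tubulin. In growing plant cells they form arrays under the plasma membrane that guide where cellulose is laid down, and in dividing cells they form the spindle and the phragmoplast that builds the new wall. Actin filaments are the tracks on which class XI myosins carry organelles. Plants have families of tubulin and actin genes whose proteins are very alike but which are used to different degrees in different organs.

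Signals are MAS5 intensities on the authors' scale, in which the mean without the lowest and highest 2% was 100.01 on each array. Signals under a floor of 22.1, the 40th percentile of all signals, were set to it before log2 was taken. Between 58.2% and 61.6% of probe sets lay over the floor on an array. "Rose" and "fell" are used for an average dark effect with a Benjamini-Hochberg adjusted p under 0.05 in limma, fitted over 15121 probe sets with an additive model of genotype and darkness. That model has 1 residual degree of freedom, so the error comes from how far the dark responses of the genotypes differ and from the spread of other probe sets, not from replicates. Differences between 2 arrays are values with no test. The labels call the tissue a cell culture, but the treatment text describes plants. RCA, the activator of the carbon-fixing enzyme Rubisco, read from 3043 to 3522, and PYK10, a root β-glucosidase, from 1823 to 3004. The root-hair expansins EXPA7 and EXPA18 read far lower, from 13.5 to 54.6. In such bulk samples, fewer cells of a type and less RNA per cell cannot be told apart.

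Of the 10 genes, 9 were over the floor on all 4 arrays. ACT12, an actin gene used mainly in pollen, was under it on every array, at 4.77 and 1.24 in Col-0 in light and dark and 0.852 and 4.098 in sfr6, and enters no comparison. Probe-set names of all 10 carry the array maker's suffix for a design against a single transcript, but cross-hybridisation between such similar genes was not tested. Levels are therefore compared between arrays for the same gene, never between genes. Any cross-hybridisation would enter these comparisons too, so similar genes that change together need not be independent observations.

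**Figure D1:**
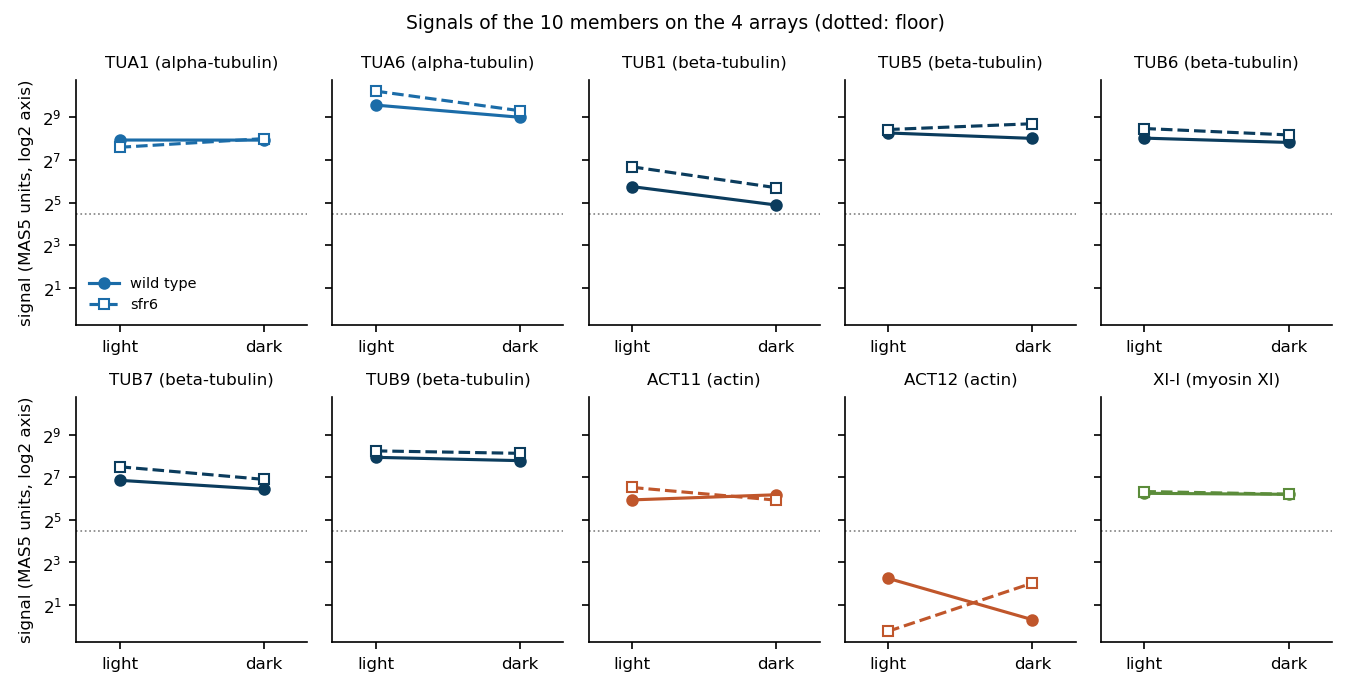
Signal of each of the 10 genes (MAS5 units, log2 axis) in light and in dark, with filled circles and solid lines for wild type (Col-0), open squares and dashed lines for sfr6, and a dotted line at the floor of 22.1; each point is 1 array. In the panels of TUB1, TUB5, TUB6, TUB7, TUB9 and TUA6 the sfr6 points lie over the Col-0 points in both conditions, and ACT12 lies under the floor throughout.

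The first comparison asks which of these genes respond to 3 h of darkness. TUA6, TUB1 and TUB7 fell, by 1.68-fold, 1.90-fold and 1.42-fold on average over the genotypes, and none of the 9 measured genes rose, also at an unadjusted p under 0.05. The other 4 tubulins, ACT11 and XI-I did not pass the test. So 3 of 9 fell, where 17.8% of all probe sets tested fell and 15.4% rose. The median average dark effect was -0.25 on the log2 scale for the 7 tubulins and -0.05 for all probe sets tested.

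TUA6 encodes an α-tubulin expressed in most organs, and its fusion to a fluorescent protein is a common label for plant microtubules. It read 764.5 in light and 514.4 in dark in Col-0, and 1204 and 636.3 in sfr6. It was thus lower in dark in both genotypes, and the sfr6 light array stood highest. The fall was 1.49-fold in Col-0 plants and 1.89-fold in the mutant, a mean log2 change of -0.75 ± 0.12 (SE, adjusted p 0.00595).

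TUB1 encodes a β-tubulin whose transcript is known to be lowered by light, through phytochromes, in the hypocotyl of dark-grown seedlings. In these light-grown plants it fell after 3 h of darkness, from 53.9 to 29.6 in Col-0 and from 102.6 to 52.0 in sfr6. The sfr6 signal in dark was close to the Col-0 signal in light. The fall was 1.82-fold and 1.97-fold, nearly equal in the genotypes, with a mean log2 change of -0.92 ± 0.18 (adjusted p 0.0111). Its dark signal in Col-0 lay not far over the floor. With the floor at the 60th percentile, 58.1, which lies above 3 of its 4 signals, its adjusted p was 0.201.

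TUB7 read 115.9 in light and 86.6 in dark in Col-0, and 180.1 and 119.5 in sfr6. Its dark signal was the lower of the pair in each genotype, and the sfr6 dark signal was just over the Col-0 light signal. It fell 1.34-fold and 1.51-fold, with a mean log2 change of -0.51 ± 0.15 (adjusted p 0.0408). This call lies close to the threshold and was lost with median centring, at an adjusted p of 0.102, and with the floor at the 60th percentile, at 0.0523.

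TUB6 and TUB9, which also encode β-tubulins, had lower signals in dark in both genotypes but did not pass the test. TUB6 read 261.0 and 226.9 in Col-0 and 356.9 and 289.6 in sfr6, with a mean log2 change of -0.25 ± 0.11 (adjusted p 0.141). TUB9, known for its use in pollen, read 244.9 and 219.9 in Col-0 and 302.1 and 278.9 in sfr6. Its mean log2 change was -0.14 ± 0.11 (adjusted p 0.404).

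TUB5 and TUA1 had different directions in the genotypes. TUB5 read 308.7 in light and 258.7 in dark in Col-0, but 345.4 and 416.9 in sfr6, so its mean log2 change was 0.01 ± 0.15 (adjusted p 0.972). TUA1, an α-tubulin gene known for its use in pollen, read 245.4 and 244.6 in Col-0 and 193.7 and 257.0 in sfr6, with a mean log2 change of 0.20 ± 0.14 (adjusted p 0.324). The Col-0 arrays of TUA1 were level, and the sfr6 light array was the lowest of its 4 values.

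Outside the tubulins, only ACT11 and XI-I were measured, and neither gave a call for darkness. The array's own actin controls, given under other observations, read lower in the dark arrays and have no test. ACT11, an actin gene used mainly in reproductive tissue, read 61.3 in light and 72.4 in dark in Col-0 and 91.8 and 60.8 in sfr6. The sfr6 light array stood above the other 3, and the mean log2 change was -0.18 ± 0.24 (adjusted p 0.606). XI-I, the myosin that moves and shapes the nucleus, was nearly level, at 75.9 and 73.4 in Col-0 and 80.5 and 73.8 in sfr6, with a mean log2 change of -0.09 ± 0.17 (adjusted p 0.724).

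**Figure D2:**
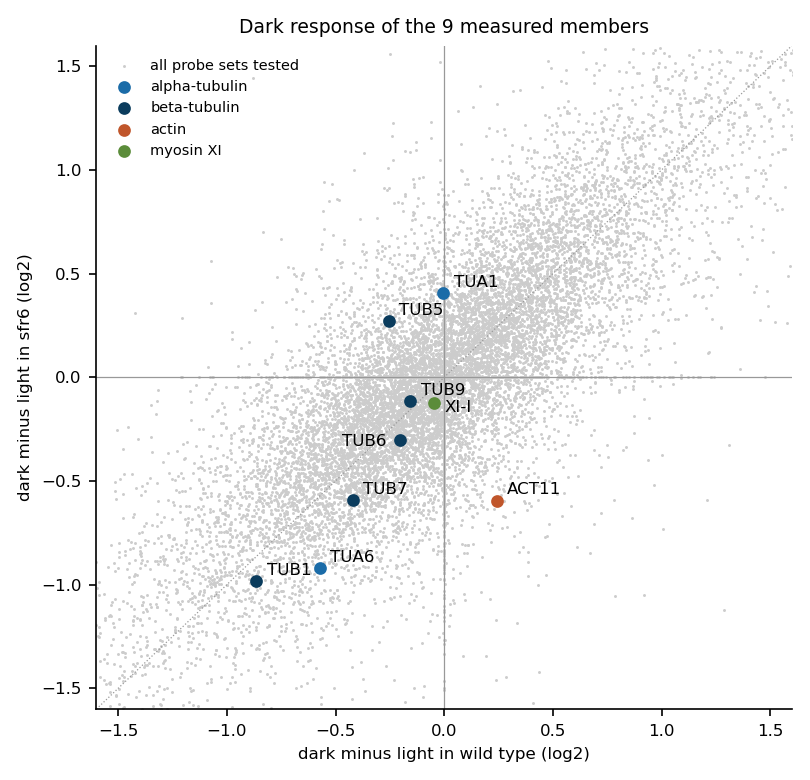
Dark minus light (log2) in wild type (Col-0, x axis) and in sfr6 (y axis) for the 9 measured genes, over all 15121 probe sets tested in grey, of which 893 lie outside the axes at ±1.6; the dotted line marks equal responses. TUB1, TUA6 and TUB7 lie at the lower left, and TUB5, TUA1 and ACT11 lie off the diagonal in quadrants of opposite sign.

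None of the 9 genes reached 2-fold between dark and light in either genotype, where 13.1% of all probe sets tested did so in Col-0 and 13.2% in sfr6. From 1.5-fold, TUB1 alone was lower in dark in Col-0, 1 of 9 against 16.6% of all. In sfr6, TUB1, TUA6, TUB7 and ACT11 were, 4 of 9 against 16.3%. Lower in dark in both genotypes by any size were 6 of 9, all but TUA1, TUB5 and ACT11, against 42.2% of the 12147 probe sets over the floor on all 4 arrays.

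A difference in dark response between sfr6 and Col-0 has no test in this design, since the difference of the responses leaves no residual degree of freedom. It reached 2-fold in 0 of 9 genes, against 2.56% of all probe sets tested. ACT11 had the response with the widest gap, 0.84 lower in sfr6 on the log2 scale, with dark over light at 1.18-fold in Col-0 and light over dark at 1.51-fold in the mutant. Those of TUB5 and TUA1 were 0.53 and 0.41 higher in sfr6, and that of TUA6 was -0.35. For the other 5 genes, TUB1, TUB6, TUB7, TUB9 and XI-I, the values lay between -0.17 and 0.04.

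The second comparison asks how sfr6 differs from Col-0. The 5 β-tubulins of this set and TUA6 had higher signals in sfr6 in light and in dark, while TUA1 had not. These differences come from the same 4 arrays as the dark responses, so a high value on the sfr6 light array, as for TUA6, enters both. None of these differences passed the test over all probe sets, in which 0.417% were higher in sfr6 and 0.860% lower. At an unadjusted p under 0.05, TUA6 and the 5 β-tubulins were higher, 6 of 9 genes where 11.3% of all probe sets were, and no member was lower. The median log2 difference of the 7 tubulins was 0.45 in light and 0.35 in dark, beside 0.01 and 0.02 for all probe sets tested.

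TUB1 had the widest difference between genotypes, 1.90-fold higher in sfr6 in light and 1.76-fold in dark. Its mean log2 change was 0.87 ± 0.18 (adjusted p 0.0720). TUB7 was 1.55-fold and 1.38-fold higher, with 0.55 ± 0.15 (adjusted p 0.112). TUB6 was 1.37-fold and 1.28-fold higher, and its average effect of 0.40 ± 0.11 had an adjusted p of 0.128.

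For these 3 β-tubulins the gap to Col-0 was of similar size in light and in dark, as their dark responses were of similar size in both genotypes. TUB9 had the same form on a smaller scale, 1.23-fold higher in light and 1.27-fold in dark, with an average of 0.32 ± 0.11 (adjusted p 0.193). TUB5 was 1.12-fold higher in light and 1.61-fold in dark, with 0.43 ± 0.15 (adjusted p 0.198). TUA6 had the reverse order, 1.58-fold in light and 1.24-fold in dark, with 0.48 ± 0.12 (adjusted p 0.0974).

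TUA1, ACT11 and XI-I did not have a steady difference of genotype. TUA1 was 1.27-fold lower in the mutant under light and 1.05-fold higher after darkness. ACT11 was 1.498-fold higher in light and 1.19-fold lower in dark. XI-I was 1.06-fold higher in light and 1.005-fold higher in dark.

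The genotype calls depend on the scale and on the filter. On the deposited scale, TUB1 passed as higher in sfr6 when only probe sets over the floor on all 4 arrays were tested (limma, adjusted p 0.0356). In that fit 278 of all 12147 probe sets were called higher. Centred on the 18 spike-in controls, which read lower on both sfr6 arrays, TUB1, TUA6, TUB6 and TUB7 passed as higher in sfr6. Their adjusted p lay between 0.0325 and 0.0437, and 803 of all 15149 probe sets tested were called higher. On this scale the median log2 difference of sfr6 from Col-0 over all probe sets was 0.19 in light and 0.13 in dark. The 5 β-tubulins were higher in sfr6 in both conditions under 7 of 8 alternatives; with the floor at the 60th percentile 1 of them, TUB1, was level in dark because both of its dark signals lay under that floor.

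**Figure D3:**
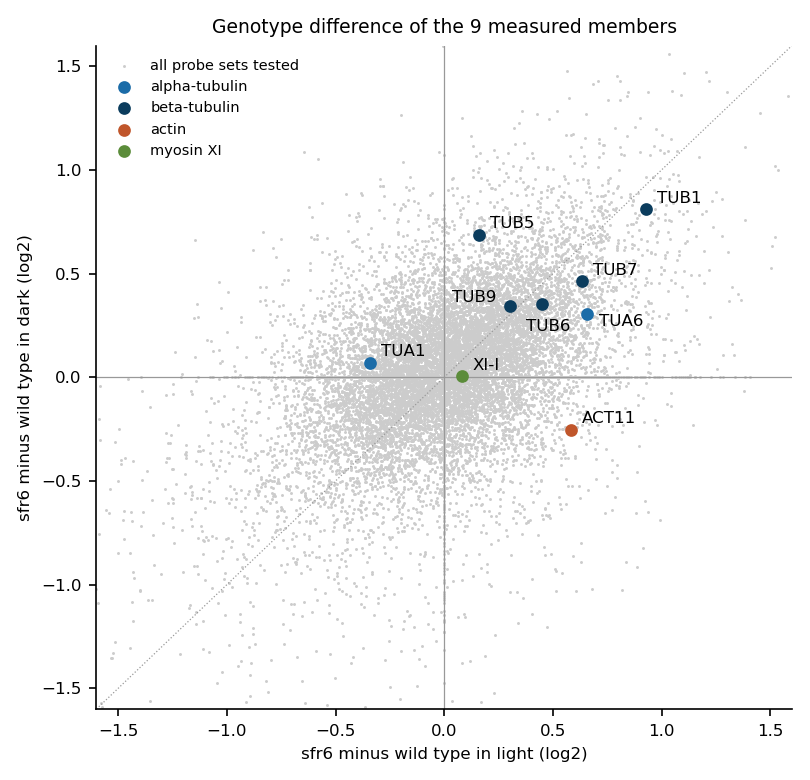
sfr6 minus wild type (Col-0) in log2 units, in light (x axis) and in dark (y axis) for the 9 measured genes, over all 15121 probe sets tested in grey, of which 122 lie outside the axes at ±1.6; the dotted line marks equal differences. TUA6 and the 5 β-tubulins lie in the upper right quadrant, with TUB1 farthest out at 0.93 and 0.81.

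None of the 9 genes reached 2-fold between the genotypes, where 2.65% of all probe sets tested did so in light and 2.26% in dark. From 1.5-fold, TUA6, TUB1 and TUB7 were higher in sfr6 in light, 3 of 9 against 6.63%. In dark, TUB1 and TUB5 were, 2 of 9 against 5.32%. Higher in both conditions by any size were 7 of 9, TUA6, the 5 β-tubulins and XI-I, against 37.5% of the probe sets over the floor on all 4 arrays.

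Other microtubule genes were taken from a list of 103 symbols, of which 12 had a named probe set and 10 were measured. None of the 10 passed for darkness or genotype. At an unadjusted p under 0.05, the microtubule-associated gene AT3G23090 and IQD31 were lower in dark, beside 3631 of all 15121 probe sets tested. Both dark signals of AT3G23090, 20.6 in Col-0 and 19.2 in sfr6, lay under the floor. IQD31 and SPR1 were higher in sfr6 at that threshold, beside 11.3% of all probe sets tested. SPR1, which keeps cortical microtubules and cell growth straight, read 304.1 in light and 286.0 in dark in Col-0 and 388.5 and 344.1 in sfr6. Like the β-tubulins it was higher in sfr6 in each condition, by 1.28-fold and 1.20-fold, but its adjusted p was 0.194. The list's median mean log2 change was -0.11 for darkness and 0.25 for sfr6, beside -0.05 and 0.03 for all probe sets tested.

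The 1 listed kinesin with a named probe set, KINESIN-12B, acts at the phragmoplast of dividing cells. It was over the floor in the light arrays alone, at 23.3 in Col-0 and 32.8 in sfr6, and at 12.0 and 12.4 in dark. PFI, a cofactor that folds tubulin, read 31.3 and 59.3 in Col-0 and 51.1 and 56.7 in sfr6, with an average dark effect of 0.54 ± 0.23 (adjusted p 0.131). It was lowest in Col-0 in light and level on the other arrays.

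Other actin genes came from a list of 89 symbols, with 16 named and 12 measured. For darkness 4 of the 12 fell, 1 rose and 7 did not pass, beside 17.8% and 15.4% of all probe sets tested. For genotype none passed, with WLIM1 and WLIM2a higher in sfr6 at an unadjusted p under 0.05, beside 11.3% of all probe sets tested. NET1B, an actin-binding protein of the membrane-linked NET family, fell from 63.5 to 31.6 in Col-0 and from 72.5 to 37.4 in sfr6 (mean log2 change -0.98 ± 0.18, adjusted p 0.00896). SPK1, which activates the small GTPases upstream of actin assembly, fell with -0.73 ± 0.21 (adjusted p 0.0447). It read 60.3 in light and 45.1 in dark in Col-0, and 86.8 and 42.3 in sfr6.

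The actin-bundling LIM proteins of this list went different ways. WLIM2a fell, from 117.8 to 74.0 in Col-0 and from 153.3 to 117.1 in sfr6, while WLIM2b rose, from 689.3 to 893.2 and from 611.7 to 819.1. Their mean log2 changes were -0.53 ± 0.16 and 0.40 ± 0.10. NET1A also fell, from 29.2 to 14.7 in Col-0 and from 34.9 to 19.1 in sfr6. Both dark signals lay under the floor, so its mean log2 change of -0.53 ± 0.16 (adjusted p 0.0496) depends on the floor.

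The list of cell division genes had 7 measured members. In darkness 2 of the 7 fell, 1 rose and 4 did not pass, where 17.8% of all probe sets tested fell and 15.4% rose. BUB3.1, of the spindle checkpoint, read 55.3 in light and 21.9 in dark in Col-0 and 92.6 and 32.5 in sfr6, an average dark effect of -1.42 ± 0.18 (adjusted p 0.0027). Its dark signal in Col-0 lay just under the floor and was set to it. PRL, the MCM7 subunit of the helicase that opens DNA for replication, fell from 68.5 to 38.8 in Col-0 and from 96.5 to 67.4 in sfr6. KEU, which acts in membrane fusion at the new cell wall, rose instead, from 121.7 to 225.3 and from 115.6 to 221.3.

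AUR1, a mitotic kinase of the spindle, read 60.5 in light and 46.6 in dark in Col-0 and 106.3 and 59.2 in sfr6. Its adjusted p was 0.0568 for darkness and 0.178 for genotype. None of the 7 genes passed for genotype. At an unadjusted p under 0.05, AUR1, PRL and BUB3.1 were higher in sfr6, beside 11.3% of all probe sets tested. The list's median average effect was -0.42 for darkness and 0.26 for sfr6, beside -0.05 and 0.03 for all probe sets tested. The summed signal of the dividing-cell markers, of which 2 of 7 were named (AUR1 and HTR12), was 79.7 and 56.1 in Col-0 in light and dark and 134.0 and 76.0 in sfr6, so the sfr6 light array held the highest sum and the Col-0 dark array the lowest. HTR12 was over the floor on the sfr6 light array alone, at 27.7, so its test depends on the floor. Neither marker passed for darkness, at adjusted p 0.0568 for AUR1 and 0.475 for HTR12. Their part in the tubulin values was not tested.

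Of 3 measured root markers, PYK10 and EXPA18 fell in darkness and EXPA7 did not pass, where 17.8% of all probe sets tested fell. None of the 3 passed for genotype. PYK10 read 3004 in light and 2081 in dark in Col-0 and 2562 and 1823 in sfr6. Its mean log2 change in darkness was -0.51 ± 0.09 (adjusted p 0.00826). The summed signal of the 3 markers was 3069 and 2123 in Col-0 and 2659 and 1865 in sfr6, nearly all of it PYK10. The root-hair expansins EXPA7 and EXPA18, unlike PYK10, had higher signals in sfr6 than in Col-0 in light. EXPA7 read 28.1 in light and 23.3 in dark in Col-0 and 54.6 and 28.4 in sfr6, highest on the sfr6 light array. It was higher in sfr6 at an unadjusted p under 0.05 (adjusted p 0.181), beside 11.3% of all probe sets tested. EXPA18 read 36.2 and 18.4 in Col-0 and 42.2 and 13.5 in sfr6, with both dark signals under the floor, and a mean log2 change in darkness of -0.82 ± 0.16 (adjusted p 0.0128).

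Of 4 measured green-tissue markers, LHCB4.3, of the light-harvesting antenna, fell in darkness, from 476.0 to 343.7 in Col-0 and from 291.6 to 229.0 in sfr6 (adjusted p 0.0344). RCA, LHCB4.1 and LHCB4.2 did not pass, and 17.8% of all probe sets tested fell. None of the 4 passed for genotype. At an unadjusted p under 0.05, LHCB4.1, LHCB4.2 and LHCB4.3, all of the LHCB4 antenna family, were lower in sfr6, beside 1281 of all 15121 probe sets tested. RCA was not. The summed signal of the 4 markers was 10546 and 9749 in Col-0 and 9065 and 8473 in sfr6. The 25S ribosomal RNA control was higher in the dark arrays, most of all in sfr6, at 121.6 and 364.4 in Col-0 and 119.8 and 1321 in sfr6. The part of these in the tubulin values was not tested. No pollen marker was named, so the pollen use of TUA1, TUB9, ACT11 and ACT12 could not be set against one here.

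COB, a membrane-anchored protein needed for oriented cellulose deposition, was the 1 measured gene of a list on the cellulose synthase complexes, which travel along cortical microtubules. It rose, from 463.4 to 636.6 in Col-0 and from 434.1 to 550.6 in sfr6, a mean log2 change of 0.40 ± 0.10 (adjusted p 0.0289). Its direction in darkness was thus opposite to that of TUA6, TUB1 and TUB7.

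**Figure D4:**
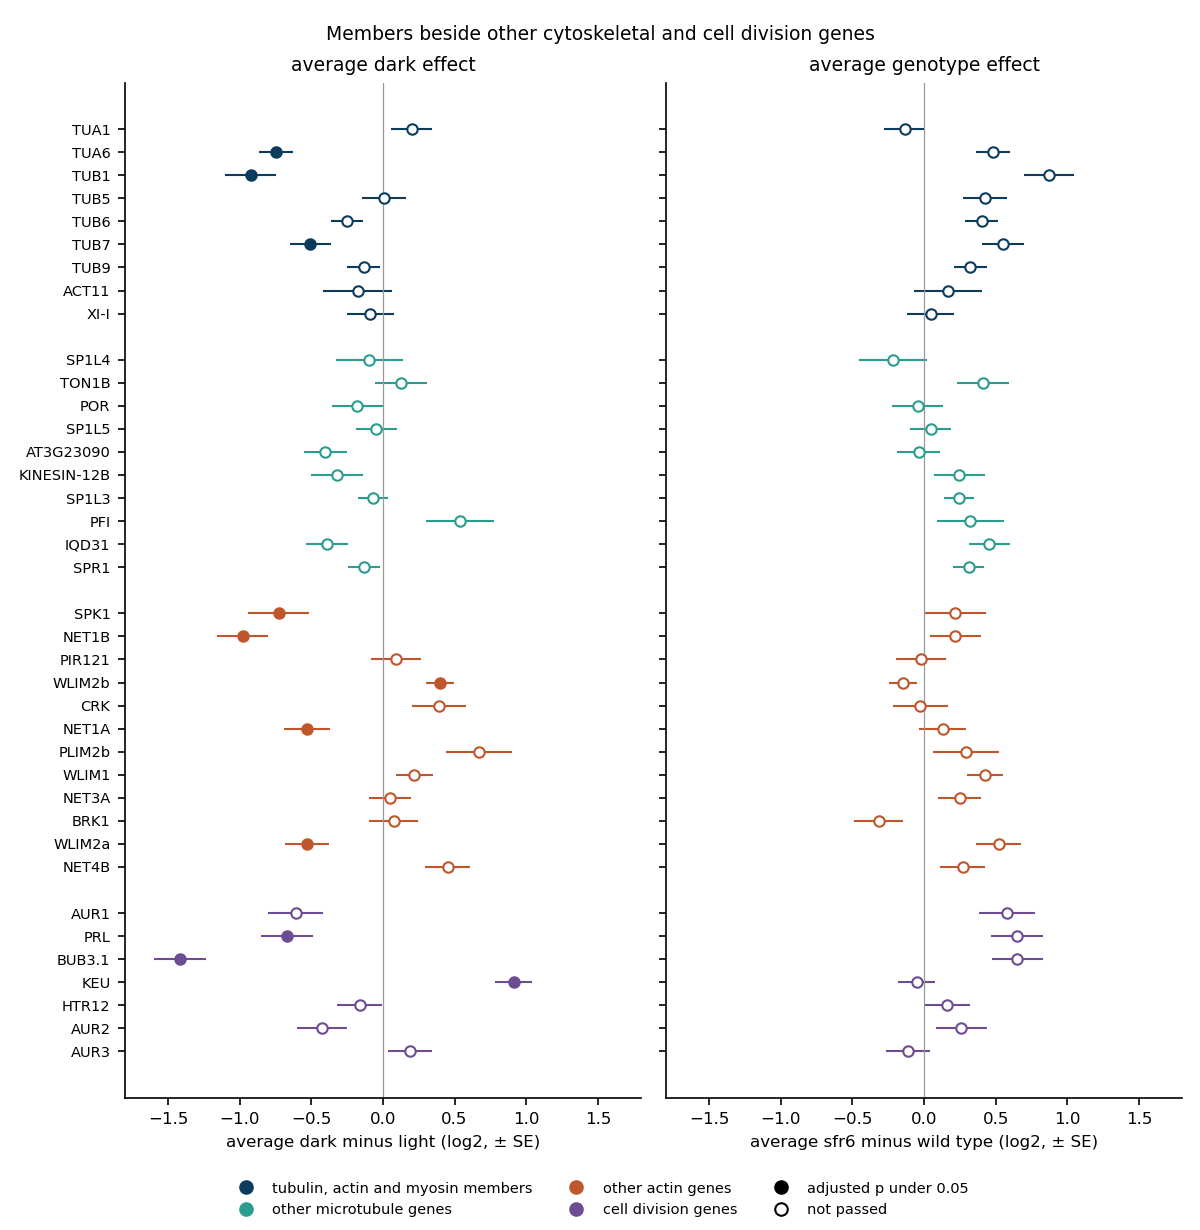
Average dark effect (left) and average genotype effect (right), each on the log2 scale with its SE, for the 9 measured members and the measured genes of the other microtubule, other actin and cell division lists; filled points have an adjusted p under 0.05. Filled points are found in the dark panel alone, where TUA6, TUB1 and TUB7 lie below 0, and the 5 β-tubulins of the set lie above 0 in the genotype panel.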

How the data were processed

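Total RNA of 4 samples was hybridised to 4 Arabidopsis ATH1 arrays. The authors deposited 1 linear intensity for each probe set, made with MAS5, per the submitters' processing notes; no version is given there, and detection calls were not used here. Of 22810 probe sets, 64 controls were left out. The platform annotation gave 1 gene for 13513 probe sets, and all 10 members kept their symbol in the RefSeq table (TAIR10.1, used for names alone). Lists were matched by symbol or synonym.

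Signals were floored at 22.1, and a probe set entered the fit when over the floor on at least 1 array. limma 3.58.1 in R 4.3.3 (lmFit, eBayes with an intensity trend, prior of 5.15 degrees of freedom) was run over 15121 probe sets. It was also run on simulated data whose noise was drawn from this fit. Such data cannot show how well the calls hold with a single array per group. Python 3.11.15 with pandas 2.3.3 and matplotlib 3.10.9 made tables and figures. All measured members are given with their values, as are listed genes that passed; other listed genes are counted. Alternatives were other floors, scalings, filters, a prior without trend, and 1.5-fold. The members and lists were chosen with earlier results of these data known. The number of arrays limits the precision.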

Additional observations from a re-analysis of the deposited data

Results flagged for a closer look

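For TUB5, TUA1 and ACT11 the dark minus light difference had opposite signs in wild type (Col-0) and sfr6, with 1 array pair each and with TUA1 near level in Col-0, which is why they are listed; the difference between the genotypes was not tested. The dark response in sfr6 minus that in Col-0 was 0.53 for TUB5, 0.41 for TUA1 and -0.84 for ACT11 on the log2 scale. TUB5 was 1.19-fold lower in dark in Col-0 and 1.21-fold higher in sfr6. TUA1 was 1.003-fold lower in Col-0, which is level, and 1.33-fold higher in sfr6. ACT11 was 1.18-fold higher in Col-0 and 1.51-fold lower in sfr6.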

How the results depend on the processing

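Of the 9 measured genes, 3 fell in darkness; 1 did, TUA6, with the floor at the 60th percentile, where TUB1 (-0.41, adjusted p 0.201) and TUB7 lost the call. With median centring 2 did, without TUB7. With no filter on low signals 0 did, and that fit called 0 of 22746 probe sets for darkness in either direction. No member passed for genotype, but 4 were higher in sfr6 with centring on the spike-in controls (TUA6, TUB1, TUB6 and TUB7) and 1, TUB1, when only probe sets over the floor on all 4 arrays were tested (adjusted p 0.0356). The cause was not tested. On the deposited scale no member was 2-fold in any comparison. From 1.5-fold, 1 was lower in dark in wild type and 4 in sfr6, 3 were higher in sfr6 in light and 2 in dark, and 1, ACT11, had a response that much lower in sfr6; with centring on the spike-in controls 1, TUB1, was 2-fold higher in sfr6 in light. Quantile normalization, the floor at the 20th percentile and the prior without trend changed no count of members. Over all probe sets, genotype calls were 63 higher and 130 lower, 803 and 213 with spike-in centring, 251 and 344 with the low floor, 278 and 340 over the floor on all 4 arrays, 21 and 82 with quantile normalization, 9 and 80 with median centring, 0 and 2 without trend, 0 and 3 with the high floor and 0 and 0 with no filter. All members have plain probe-set names and encode cytoskeletal proteins, so these planned restrictions left them as they were. No paired analysis was possible because each group has 1 array.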

Other observations

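A probe set annotated to 2 α-tubulin genes, and so outside the set, went the other way from TUA6 in darkness. It read 645.6 in light and 1173 in dark in Col-0, and 827.8 and 1219 in sfr6. Both dark arrays stood above both light arrays, by 1.82-fold in Col-0 and 1.47-fold in sfr6, and it rose with an average log2 effect of 0.71 ± 0.11 (limma, adjusted p 0.00574). It was looked at after its values had been seen. The other probe set with a matching symbol and 2 genes is annotated to cold-inducible genes that are no kinesins, and read 846.8 and 530.3 in Col-0 and 166.3 and 64.5 in sfr6.

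The array's own actin controls, which the files pair with no gene, were lower in the dark arrays. The 3' probe set of the first actin control read 857.8 and 621.2 in Col-0 in light and dark and 977.7 and 604.1 in sfr6, and that of the other read 1457 and 1069, and 1809 and 1120. Signal at the 3' end over signal at the 5' end lay between 6.76 and 7.42 in the first and between 1.62 and 1.77 in the other. These values have no test here.

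A further 6 genes named as motors or crosslinkers were added once the named probe sets had been read. Of these, 3 were measured and 0 passed for darkness or genotype by limma. At an unadjusted p under 0.05, 1 of them, ATMAP65-6, was higher in dark, beside 3021 of all 15121 probe sets tested. ATMAP65-6, of the family that bundles microtubules, read 77.1 in light and 107.1 in dark in Col-0 and 66.9 and 90.7 in sfr6 (adjusted p 0.0739). KINESIN-13A read 150.4 and 177.1 in Col-0 and 183.1 and 201.7 in sfr6, and the myosin XIH read between 27.0 and 37.4. The myosins XIC, XIE and XIJ were under the floor on all 4 arrays.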
